A study of Mus musculus with 12 samples.

Results

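The proteoglycan-cleaving ADAMTS proteases described here are 8 genes, Adamts1, Adamts4, Adamts5, Adamts8, Adamts9, Adamts12, Adamts15 and Adamts20. They were chosen by symbol, through the Ensembl gene identifiers of the deposited count table, and all 8 of the 8 were found among its 48795 genes. All 8 also passed the filter on low counts that left 18153 genes for testing, but Adamts20 passed it only with the labelled E18 WT group, where it was highest. RNA was sequenced from mouse fetal membranes in 12 libraries, 3 in each of 4 groups. The double knockout (DKO) lacks biglycan and decorin, a pair of small leucine-rich proteoglycans of the extracellular matrix, and its strain is given as C3H and C57BL/6. The wild-type (WT) is C3H, so strain background and genotype cannot be told apart. The groups are E12 WT, E12 DKO, E18 WT and E18 DKO, named by embryonic day, and the series presents the mouse as a model of preterm birth. No treatment, transgene or Cre driver is named in the labels for any group. The labels do not say whether libraries of a group came from separate animals or litters, or from pools, so p-values measure only the spread between these samples.

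ADAMTS proteases are secreted zinc enzymes that carry thrombospondin repeats and are made as inactive proforms, which proprotein convertases such as furin trim. The versican- and aggrecan-cleaving members cut the core proteins of the large chondroitin sulfate proteoglycans that hold water and hyaluronan in the matrix, and TIMP3 is their best-known tissue inhibitor. In embryonic tissues versican turnover by ADAMTS1, ADAMTS5, ADAMTS9 and ADAMTS20 accompanies remodelling of provisional matrix, and fetal membranes are a thin sheet of epithelium on such a matrix.

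The labels were checked before the members were compared. Bgn was at 14.3 to 25.1 CPM (counts scaled to a TMM-normalised library of 1000000) in the 6 DKO libraries and at 223 to 686 in the 6 WT libraries, and Dcn was at 4.67 to 8.44 against 198 to 978. Stage was checked by the share of beta-globin counts from the embryonic genes Hbb-y and Hbb-bh1. It was 82.3% to 85.1% in E12 DKO and 1.33% to 2.67% in E18 DKO. In the libraries labelled E18 WT it was 81.4%, 87.8% and 74.8%, which goes against that label's stage, so they are called "labelled E18 WT" throughout. E12 WT 1 had 14.8% and E12 WT 2 and 3 had 95.1% and 97.1%, so E12 WT 1 stood apart from its group. Since the embryonic share differs between E18 DKO and labelled E18 WT, stage and genotype cannot be told apart between these groups. The mitochondrial share of counts was 21.2% in E12 WT 3 and 3.58% to 7.78% elsewhere. Labelled E18 WT 3 held 71.4 CPM of the placental prolactin Prl8a2, against at most 2.12 in any other library. All 9 epithelial and all 8 stromal markers of the membranes were detected in each group, and so were all 8 markers of visceral yolk sac endoderm, at a summed 50800 to 153000 CPM. Total counts were 19967593 to 33065424 per library.

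The genes lie on chromosomes 1, 6, 9, 15 and 16 of the GRCm38 build, with positions from the deposited gene table, each spanning a whole gene of exons and introns. Adamts1 occupies chr16:85793827-85803113 and Adamts5 chr16:85858170-85901125, both on the minus strand, 55057 bases apart. Adamts15 (chr9:30899155-30922452, minus strand) and Adamts8 (chr9:30942562-30963838, plus strand) stand head to head, 20110 bases apart. Adamts4 occupies chr1:171250421-171260637 on the plus strand. Adamts9 is at chr6:92772699-92943492 on the minus strand. Chromosome 15 carries Adamts12 (chr15:11064790-11346867, plus strand) and Adamts20 (chr15:94270163-94465418, minus strand).

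Promoter sequence was found for 4 of the 8 genes in RefSeq, build GRCm38.p6. The 250 bases before the RefSeq start are shown for Adamts1 and Adamts12, because these had the largest called rise and the largest called fall of the 8 between the DKO stages. They are written 5′ to 3′ on the strand of the gene, Adamts1 from chr16:85803114-85803363 (minus strand) and Adamts12 from chr15:11064523-11064772 (plus strand). Capitals mark matches, on either strand, to the GC box GGGCGG, the TATA box TATAAA, the CCAAT box CCAAT, the AP-1 site TGANTCA or the cAMP response element TGACGTCA.
Adamts1: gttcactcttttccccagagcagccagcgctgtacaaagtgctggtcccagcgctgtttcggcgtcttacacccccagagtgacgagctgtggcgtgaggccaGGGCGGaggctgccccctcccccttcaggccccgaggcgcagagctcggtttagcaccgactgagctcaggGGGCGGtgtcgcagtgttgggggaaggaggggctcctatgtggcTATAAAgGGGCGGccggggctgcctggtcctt
Adamts12: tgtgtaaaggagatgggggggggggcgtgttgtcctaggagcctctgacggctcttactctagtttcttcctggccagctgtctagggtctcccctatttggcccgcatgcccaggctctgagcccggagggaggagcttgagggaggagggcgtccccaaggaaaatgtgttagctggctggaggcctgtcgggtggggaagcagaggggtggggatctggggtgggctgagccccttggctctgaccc
In the Adamts1 window the GC box occurred 3 times, with first bases at -147, -76 and -25 from the start, and TATAAA occurred once, from -32 to -27, next to the last GC box and not overlapping it. In the Adamts12 window none of the 5 motifs occurred. Over 32851 mouse promoter windows of the same length, 32.7% held GGGCGG, 12.4% TATAAA, 33.8% CCAAT, 6.75% TGANTCA and 1.55% TGACGTCA. These matches describe letters only, and binding was not measured.

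Levels between genes were compared as RPKM, the TMM-normalised CPM divided by the length of the gene's exons in kb. Adamts1, which is known for its part in ovulation, had the highest mean RPKM of the 8 in every group. Its mean was 15.3 ± 15.8 RPKM in E12 WT, 8.04 ± 1.06 in E12 DKO, 14.8 ± 10.4 in labelled E18 WT and 51.5 ± 27.4 in E18 DKO (SD, n = 3 each). Adamts1 lay above the next gene without overlap in 3 groups, and in labelled E18 WT its 5.77 to 26.2 RPKM overlapped the 2.12 to 10.5 of Adamts15.

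Below Adamts1 the order differed between groups. Adamts9, a versicanase made widely in the embryo, was second in both E12 groups, at 3.42 ± 0.80 RPKM in WT and 3.51 ± 0.54 in DKO. In E12 DKO it overlapped Adamts15 at 2.88 ± 0.84, and Adamts15 overlapped Adamts12 at 2.05 ± 0.61. Adamts5 followed at 1.24 ± 0.16, Adamts4 at 0.77 ± 0.09 and Adamts8 at 0.49 ± 0.09, and these steps did not overlap. In E12 WT the ranges of every neighbouring pair from Adamts9 down to Adamts8 overlapped.

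In labelled E18 WT, Adamts15 was second at 6.10 ± 4.19 RPKM, and every neighbouring pair down to Adamts8 overlapped. In E18 DKO, Adamts5 was second at 2.52 ± 0.44 RPKM and overlapped Adamts9 at 2.12 ± 0.24. Adamts15 came next at 1.16 ± 0.15, apart from both, and the ranges of Adamts8, Adamts4 and Adamts12 at 0.51, 0.34 and 0.29 ran into each other. Adamts20, known from the belted coat-colour mutants, was lowest in every group, with mean RPKM from 0.0081 in E18 DKO to 0.17 in labelled E18 WT.

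**Figure D1:**
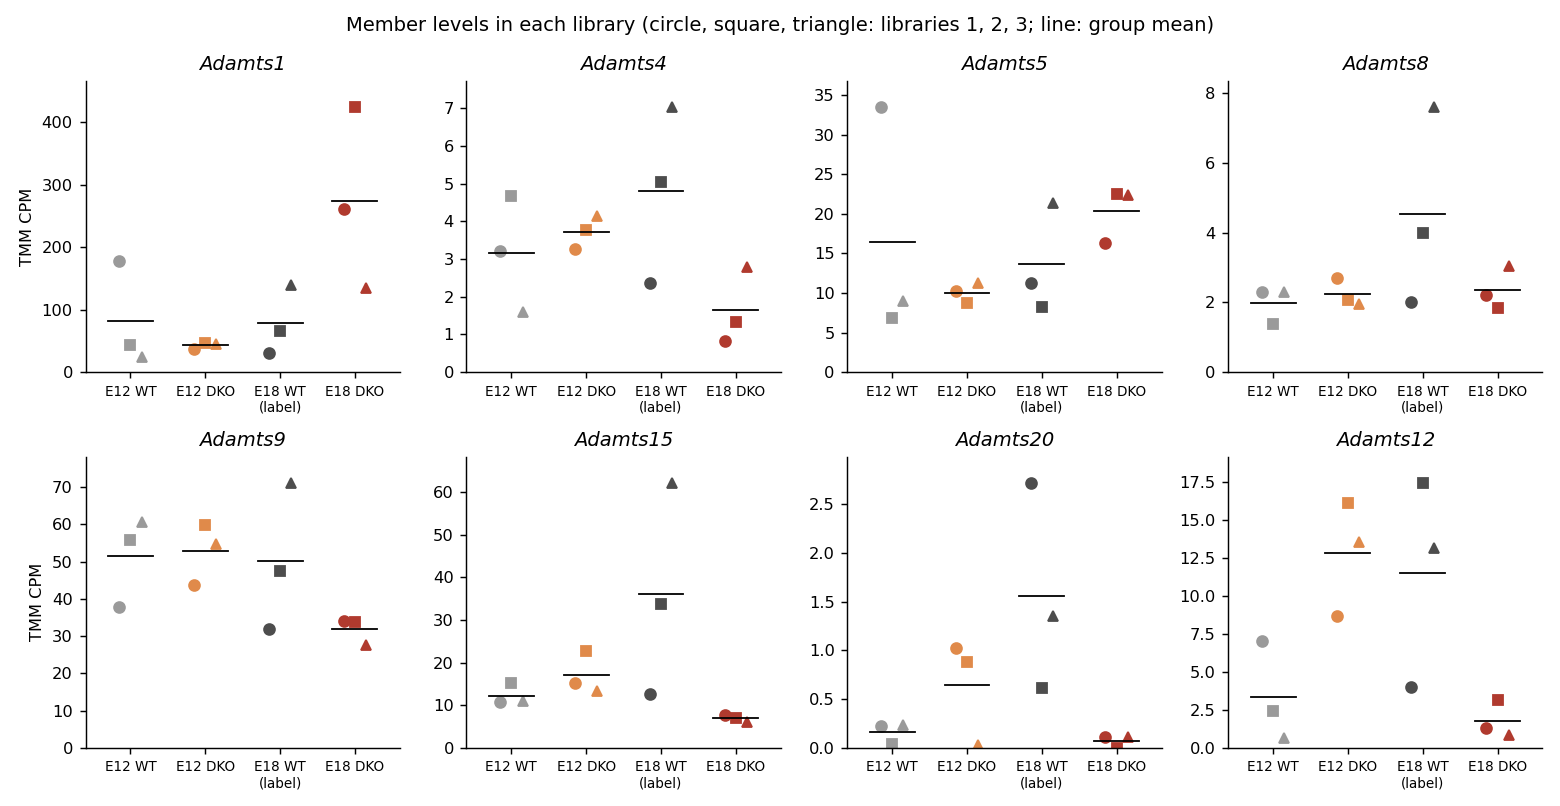
TMM CPM of each of the 8 genes in each of the 12 libraries, by group, with 1 panel a gene and a vertical axis of its own; points are libraries and bars the group mean. Adamts1 reaches 134 to 424 CPM in E18 DKO, whereas Adamts15 there stays at 5.99 to 7.75 CPM, below every other library.

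The summed RPKM of the 8 genes was 16.4 to 21.7 in E12 DKO, 12.4, 16.8 and 44.2 in E12 WT, 13.3 to 49.4 in labelled E18 WT and 32.4 to 87.3 in E18 DKO. Adamts1 made up 41.1% to 43.8% of that sum in E12 DKO and 43.5% to 53.1% in labelled E18 WT. It made up 78.3% to 91.5% of it in E18 DKO. In E12 WT its share was 75.7% in library 1, the library with the late-type globins, and 47.8% and 35.7% in libraries 2 and 3.

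**Figure D2:**
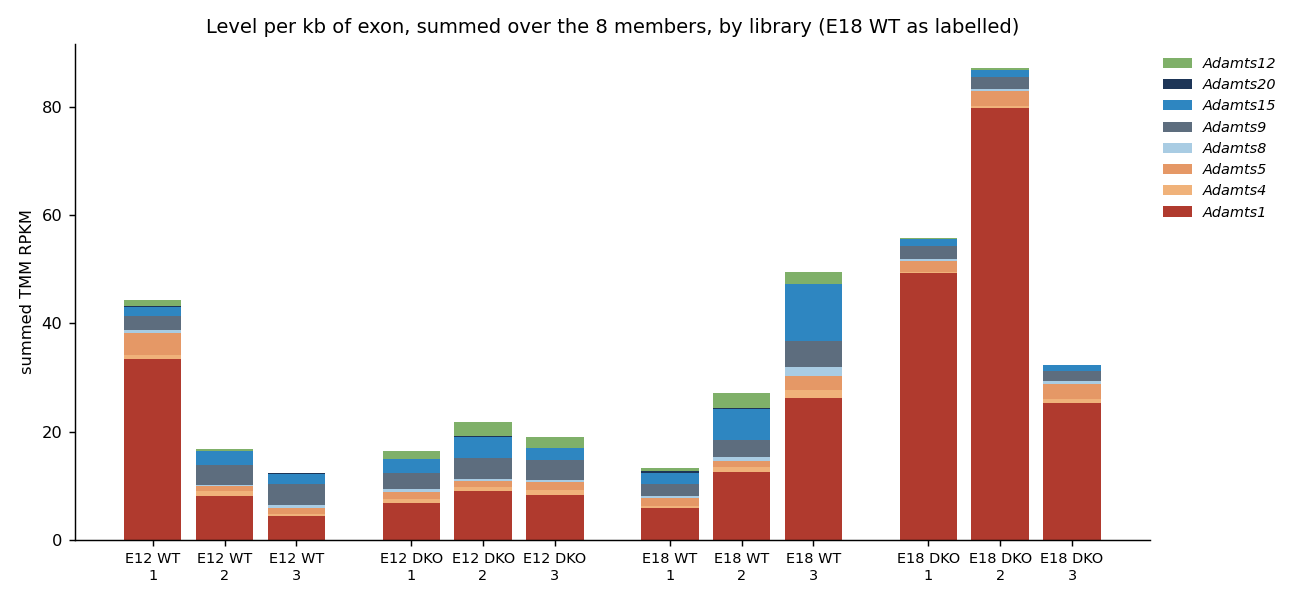
Summed TMM RPKM of the 8 genes in each library, stacked by gene from a baseline of 0. Adamts1 fills 78.3% or more of the bar in each E18 DKO library and in E12 WT 1 fills 75.7%, against 35.7% to 53.1% in the other 8 libraries.

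Between DKO and WT at E12 none of the 8 genes passed the quasi-likelihood test of edgeR, with Benjamini-Hochberg adjustment over all genes tested and a threshold of 0.05. Among all genes 0.353% were called, in either direction. At an unadjusted p under 0.05, for which no share of all genes is given here, there was 1 of the 8. DESeq2 and limma voom each called 0, against 11.5% and 0.43% of all genes. The median log2 difference of the 8 was 0.20, against -0.08 over all genes tested.

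The largest departure at E12 among the more abundant genes was in Adamts12, an enzyme of a separate ADAMTS branch that it shares with Adamts7 and that cleaves cartilage oligomeric matrix protein. Adamts12 measured 8.71, 16.1 and 13.6 CPM in E12 DKO, compared with 7.0, 2.43 and 0.65 CPM in the E12 WT libraries. Every DKO library lay above every WT library, as for 15.7% of all genes, and 30.1% did not overlap in either direction. The log2 difference was 1.92 ± 0.77 (SE, adjusted p = 0.163). Without E12 WT 1, whose 7.0 CPM was the nearest to the DKO range, it was 3.01 with an adjusted p of 0.0269 in the same edgeR test, and without E12 WT 1 and labelled E18 WT 3 together it was also 3.01 (adjusted p = 0.0295). Over the 6 fits that left out 1 library the Adamts12 value ran from 1.45 to 3.01. The adjusted p ran from 0.0269 to 0.342, and only the fit without E12 WT 1 called it. The count of all genes called moved from 64 to 3199 without E12 WT 1.

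At E12, Adamts1 measured 36.4, 47.2 and 44.3 CPM in DKO against 177, 42.6 and 23.4 in WT. The groups overlapped, and E12 WT 1 alone lay far above the rest. Adamts5, the main aggrecanase of mouse cartilage, had the same outlying library, with 33.5 CPM in E12 WT 1, 6.89 and 8.95 in the other E12 WT libraries and 8.68 to 11.2 in DKO. The log2 differences were -0.93 ± 0.71 for Adamts1 (adjusted p = 0.44) and -0.71 ± 0.53 for Adamts5 (adjusted p = 0.426), and without E12 WT 1 they turned to 0.37 and 0.35.

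The other 5 genes had overlapping E12 groups. Adamts20 had 31, 26 and 1 counts in E12 DKO and 5, 1 and 4 in E12 WT, a ratio of summed counts of 4.09 (95% counting interval 2.07 to 8.98, which covers counting error only), and its log2 difference was 2.00 ± 1.11 (adjusted p = 0.287). For Adamts4, Adamts8, Adamts9 and Adamts15 the log2 differences lay between 0.04 and 0.48 and the adjusted p between 0.53 and 0.948.

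At E18, 4 of the 8 genes were lower in DKO than in labelled E18 WT and none was higher in edgeR's quasi-likelihood test. Of all genes tested 42.3% were called, 21.8% lower and 20.5% higher. The median log2 difference of the 8 was -1.24, against -0.04 over all genes. The 4 were Adamts4, Adamts12, Adamts15 and Adamts20. Since Adamts20 entered the test only through the group where it was high, its call adds no support to the count, and 3 of the other 7 were lower. The groups did not overlap for 3 of the 8 genes, Adamts12, Adamts15 and Adamts20, all lower in DKO. Of all genes 56.9% did not overlap in either direction, and 29.1% were lower in DKO without overlap. The separation of Adamts20 likewise adds no support.

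Adamts15, a versicanase known from muscle, had the lowest adjusted p of the 8. It measured 7.75, 6.91 and 5.99 CPM in E18 DKO, compared with 12.6, 33.8 and 62.1 CPM in the labelled E18 WT libraries. The DKO libraries lay close together, while the WT libraries spread and did not reach down to them. Adamts15 fell by 2.39 ± 0.47 on the log2 scale (adjusted p = 0.00234), and a log2 difference of -1.75 or beyond remained with an adjusted p of at most 0.011 when any 1 of the 6 libraries was left out.

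Adamts12 fell too, from 4.0, 17.4 and 13.1 CPM in labelled E18 WT to 1.32, 3.16 and 0.87 CPM in E18 DKO. Labelled E18 WT 1 was close to the DKO range without entering it. The log2 difference was -2.68 ± 0.80 (adjusted p = 0.0197), and the adjusted p was 0.0714 without E18 DKO 1, 0.0673 without E18 DKO 3 and 0.067 without labelled E18 WT 2.

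For Adamts20 the E18 DKO libraries held 2, 0 and 2 counts and the labelled E18 WT libraries 72, 21 and 33. The 126 counts against 4 gave a ratio of 22.2 (95% counting interval 8.47 to 82.8), and the fitted log2 difference was -4.41 ± 1.24 (adjusted p = 0.0152). The gene had 10 or more counts in 5 of the 12 libraries, the 3 labelled E18 WT among them. Without that group it did not pass the filter on low counts, and with no filter the adjusted p was 0.0108. The adjusted p was 0.0513 both without E18 DKO 2 and without labelled E18 WT 1.

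Adamts4, the first enzyme described as an aggrecanase, measured 0.82, 1.32 and 2.78 CPM in E18 DKO, compared with 2.37, 5.04 and 7.02 CPM in the labelled E18 WT libraries. E18 DKO 3 reached above labelled E18 WT 1, so the groups overlapped. The log2 difference was -1.55 ± 0.54 (adjusted p = 0.038). It missed the threshold in 4 of the 6 fits that left out 1 library, with adjusted p of 0.128 without E18 DKO 1, 0.107 without E18 DKO 2, 0.0835 without labelled E18 WT 2 and 0.127 without labelled E18 WT 3, and also when the 2 groups were fitted alone (0.0555).

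Adamts1 had a value of the opposite sign. It measured 261, 424 and 134 CPM in E18 DKO, compared with 30.6, 66.0 and 139 CPM in the labelled E18 WT libraries, so that E18 DKO 3 and labelled E18 WT 3 were alike while the others were apart. The log2 difference was 1.80 ± 0.73 (adjusted p = 0.0666), not called. Without labelled E18 WT 3 it was 2.50 (adjusted p = 0.0375), and without that library and E12 WT 1 it was 2.50 (adjusted p = 0.00297). DESeq2 (adjusted p = 0.0207), limma voom (adjusted p = 0.0466) and a fit of the 2 groups alone (adjusted p = 0.0388) called it. Over the 6 edgeR fits that left out 1 library the value ran from 1.33 to 2.50. The adjusted p ran from 0.0375 to 0.2, and 1 of these fits called Adamts1.

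Adamts5 measured 16.3, 22.5 and 22.4 CPM in E18 DKO, compared with 11.3, 8.23 and 21.3 CPM in the labelled E18 WT libraries. Only labelled E18 WT 3 reached the DKO range. The log2 difference was 0.58 ± 0.53 (adjusted p = 0.395). Over the 6 edgeR fits that left out 1 library it ran from 0.32 to 1.06, with adjusted p from 0.171 to 0.698, so none called Adamts5. Without labelled E18 WT 3 and E12 WT 1 together it was 1.06 (adjusted p = 0.00468). E12 WT 1 belongs to neither group compared here.

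Adamts9 measured 34.0, 33.9 and 27.7 CPM in E18 DKO, compared with 32.0, 47.4 and 71.1 CPM in the labelled E18 WT libraries, a log2 difference of -0.65 ± 0.28 (adjusted p = 0.0782) with overlapping groups. Adamts8, a weak aggrecanase known also as an inhibitor of vessel growth, was at 2.20, 1.83 and 3.05 CPM against 2.00, 3.98 and 7.59 CPM, a log2 difference of -0.94 ± 0.45 (adjusted p = 0.116). Both were called lower without labelled E18 WT 1, Adamts9 at -0.90 (adjusted p = 0.0229) and Adamts8 at -1.30 (adjusted p = 0.0335). Without labelled E18 WT 3 they shrank to -0.32 (adjusted p = 0.336) and -0.35 (adjusted p = 0.529). Labelled E18 WT 3 had the highest value of all 12 libraries for Adamts4, Adamts8, Adamts9 and Adamts15. Without it and E12 WT 1, the calls among the 8 were Adamts12, Adamts15 and Adamts20 lower and Adamts1 and Adamts5 higher. In that fit 49.4% of all genes were called, 4569 genes higher and 4590 lower, and the Adamts20 call again adds no support.

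Markers of other cell types moved with this comparison, in which 20.5% of all genes were called higher and 21.8% lower. Summed over the 8 stromal mesenchyme markers, 2760 to 4850 CPM were counted in E18 DKO and 13900 to 30200 in labelled E18 WT, and 6 of the 8 were called lower and 1 higher. The 8 cartilage markers summed to 65.9 to 81.1 CPM against 430 to 1080, and 5 of the 7 tested were lower and 2 higher. Acan, 1 of the 2 higher, passed the filter on low counts only with E18 DKO, so its call adds no support. The other cartilage markers were not checked for this. The 9 epithelial markers summed to 6360 to 8260 CPM against 2530 to 3200, with 5 higher and 2 lower, and the 7 leukocyte markers to 650 to 1010 against 206 to 247, with 3 higher and 1 lower. The 7 immediate early genes summed to 603 to 853 CPM against 130 to 255, with 5 higher and none lower. The 8 trophoblast and decidua markers summed to 798 CPM in labelled E18 WT 3 and to at most 77.0 in every other library. The 8 endothelial markers summed to 402 to 473 CPM against 212 to 385, with 2 higher and 1 lower. The 3 embryonic globins summed to 17.3 to 19.0 CPM against 6050 to 7710, and all 3 were lower. None of these genes was at 0 throughout either E18 group, and their part in the protease values was not tested. In such bulk samples, fewer cells of a type and less RNA per cell cannot be told apart.

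**Figure D3:**
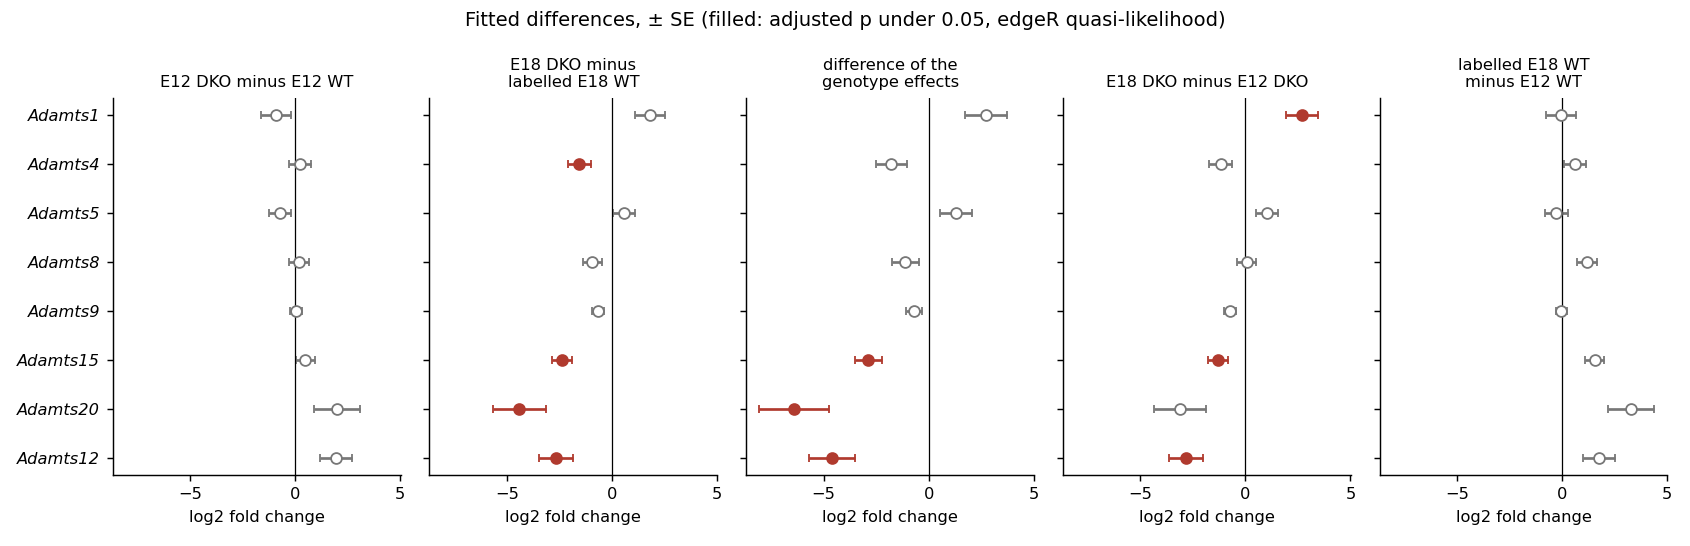
Log2 difference of each of the 8 genes with its standard error (bar) in the comparisons drawn, from edgeR's quasi-likelihood fit; filled points passed an adjusted p under 0.05. Adamts12, Adamts15 and Adamts20 lie left of 0 with calls at E18 and near or right of 0 without calls at E12.

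The change of the DKO minus WT difference between the labelled stages was tested directly, as an interaction term. Of the 8 genes 3 were called, all towards a lower DKO level at E18, against 41.9% of all genes called and 20.3% in that direction. The difference of the log2 differences was -4.60 ± 1.11 for Adamts12 (adjusted p = 0.00738), -2.87 ± 0.64 for Adamts15 (adjusted p = 0.00503) and -6.40 ± 1.67 for Adamts20 (adjusted p = 0.0108), by edgeR's quasi-likelihood test. Adamts20 again entered the test only through labelled E18 WT. These 3 calls were made in each of the 12 fits that left out 1 library. Adamts20 was not called by limma voom (adjusted p = 0.057).

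Adamts1 had an interaction value of 2.73 ± 1.02 (adjusted p = 0.0501), and Adamts4 one of -1.78 ± 0.75 (adjusted p = 0.0763). Over the fits that left out 1 library the Adamts1 value ran from 1.43 without E12 WT 1 (adjusted p = 0.148) to 3.42 without labelled E18 WT 3 (adjusted p = 0.0268), and without both it was 2.13 (adjusted p = 0.0247). For Adamts5, Adamts8 and Adamts9 the adjusted p lay between 0.174 and 0.182.

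Between the DKO stages, 1 gene rose and 2 fell from E12 to E18. Of all genes, 46.0% were called, 23.2% higher and 22.8% lower at E18. The comparison shares the E18 DKO libraries with the comparison to labelled E18 WT, so the values below are not independent of those above. Adamts1 went from 36.4, 47.2 and 44.3 CPM to 261, 424 and 134 CPM, without overlap, and rose by 2.68 ± 0.75 on the log2 scale (edgeR quasi-likelihood adjusted p = 0.0135). Leaving out E12 DKO 1 gave an adjusted p of 0.0512.

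Adamts12 fell from 8.71, 16.1 and 13.6 CPM at E12 to 1.32, 3.16 and 0.87 CPM at E18, a log2 difference of -2.83 ± 0.80 (adjusted p = 0.0143). The adjusted p was 0.0558 without E18 DKO 1 and 0.0527 without E18 DKO 3. Adamts15 went from 15.3, 22.7 and 13.2 CPM to 7.75, 6.91 and 5.99 CPM, again without overlap, and fell by 1.31 ± 0.45 on the log2 scale (adjusted p = 0.0347). That call was lost in 5 of the 6 fits without 1 library, all but the fit without E12 DKO 3, with adjusted p from 0.0579 without E12 DKO 1 to 0.118 without E12 DKO 2, and by limma voom (0.0938).

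Of the remaining genes, Adamts9 was at 43.7, 59.7 and 54.8 CPM at E12 and 27.7 to 34.0 at E18 (log2 difference -0.73 ± 0.28, adjusted p = 0.0511). Adamts5 was at 8.68 to 11.2 CPM and then 16.3 to 22.5 (1.02 ± 0.53, adjusted p = 0.136), and Adamts4 at 3.25 to 4.13 CPM and then 0.82 to 2.78 (-1.18 ± 0.54, adjusted p = 0.0923). None of these 3 overlapped between the stages, and 6 of the 8 genes in all did not overlap, 2 higher and 4 lower at E18, against 67.2% of all genes, 33.1% higher and 34.1% lower. Adamts20 had 58 counts at E12 and 4 at E18, a ratio of 9.06 (95% counting interval 3.35 to 34.4; adjusted p = 0.0598). Adamts8 was at 1.97 to 2.69 CPM and 1.83 to 3.05 CPM, a log2 difference of 0.07 ± 0.45. Between the DKO stages stromal mesenchyme markers summed to 12800 to 15800 CPM at E12, above the E18 range, and immediate early genes to 107 to 126 CPM, below it, and their part was not tested. The trophoblast and decidua sums overlapped, at 2.5 to 20.4 CPM at E12 and 1.48 to 36.5 at E18.

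Between labelled E18 WT and E12 WT, edgeR called none of the 8 genes, against 0.953% of all genes. Of the 8, 4 had an unadjusted p under 0.05, for which no share of all genes is given here. DESeq2 called 1 (and 6.74% of all genes) and limma voom 0 (and 0.694%). The gene called by DESeq2 was Adamts15, at 1.55 (adjusted p = 0.0209), and edgeR gave it 1.56 ± 0.45 (adjusted p = 0.123). Adamts15 measured 10.7, 15.1 and 11 CPM in the E12 WT libraries against 12.6, 33.8 and 62.1 in the labelled E18 WT libraries, where library 1 fell within the E12 range. Adamts20 was the 1 gene without overlap, against 17.9% of all genes and 9.29% higher in labelled E18 WT. It had 5, 1 and 4 counts in E12 WT and 72, 21 and 33 in labelled E18 WT. Since Adamts20 entered the test only through labelled E18 WT, where it was high, its separation adds no support for a direction. The 95% counting interval of the ratio of its summed counts was 5.28 to 21.4 and its adjusted p 0.167. The unadjusted p was also under 0.05 for Adamts8 (log2 difference 1.18 ± 0.46, adjusted p = 0.207) and Adamts12 (1.77 ± 0.76, adjusted p = 0.255). Adamts12 was called at 2.86 (adjusted p = 0.0454) without E12 WT 1, and Adamts15 at 1.97 (adjusted p = 0.0456) without labelled E18 WT 1. In the other direction, Adamts15 was at 0.92 (adjusted p = 0.31) and Adamts8 at 0.59 (adjusted p = 0.507) without labelled E18 WT 3, and Adamts12 was at 1.29 (adjusted p = 0.377) without E12 WT 3.

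E12 DKO and labelled E18 WT, the groups of opposite genotype whose libraries carried mostly embryonic globins, were also compared. None of the 8 genes was called by edgeR, DESeq2 or limma voom, against 0.187%, 1.36% and 0.0881% of all genes. With edgeR, 2 of the 8 had an unadjusted p under 0.05, for which no share of all genes is given here. These 2 were Adamts15 at -1.08 ± 0.44 (adjusted p = 0.509) and Adamts8 at -1.01 ± 0.45 (adjusted p = 0.538), and without labelled E18 WT 3 they were at -0.44 and -0.42. The groups overlapped for all 8, while 30.0% of all genes did not overlap. Adamts12 was at 8.71 to 16.1 CPM in E12 DKO and 4.0 to 17.4 CPM in labelled E18 WT, a log2 difference of 0.15 ± 0.73.

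The neighbours on chromosome 16 were high in the same libraries. Adamts1 and Adamts5 both had their 5 highest values in E12 WT 1, the 3 E18 DKO libraries and labelled E18 WT 3. The order within those 5 differed, with E12 WT 1 highest for Adamts5 and E18 DKO 2 highest for Adamts1. On chromosome 9, Adamts15 and Adamts8 were both highest in labelled E18 WT 3 and next in labelled E18 WT 2. They parted in E18 DKO, where Adamts15 was below all other libraries and Adamts8, at 1.83 to 3.05 CPM, was not.

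**Figure D4:**
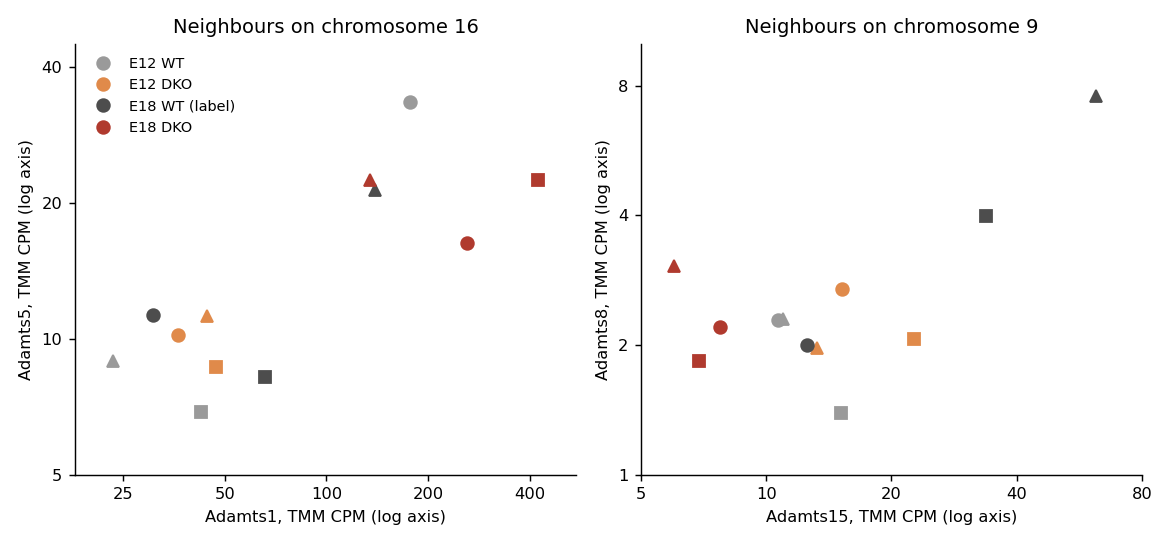
TMM CPM of neighbouring genes in the 12 libraries on log axes, Adamts1 against Adamts5 on the left and Adamts15 against Adamts8 on the right; colours are groups, and circles, squares and triangles are libraries 1, 2 and 3. The E18 DKO libraries, E12 WT 1 and labelled E18 WT 3 form the upper right of the left panel, and labelled E18 WT 2 and 3 that of the right panel.

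Genes most alike in pattern to each protease were taken as the 3 with the highest Pearson r of log2 CPM over the 12 libraries, among 11136 genes of at least 5 CPM. The libraries fall into groups that share genotype, stage and depth, so r is a description. Adamts1 was closest to Mmp14 (r = 0.98), a membrane-anchored collagenase, Gpc6 (0.97) and Klf6 (0.97). Adamts12 was closest to Pja2 (0.98), Ubtd2 (0.96) and Calu (0.96), and Adamts15 to Egflam (0.96), Lrch2 (0.95) and Asb4 (0.93). Adamts5 was closest to Bcl2l2 (0.95) and Fam241a (0.94), and Adamts4 to Adam19 (0.93), a membrane metalloprotease, Hoxd8 (0.92) and Zfp383 (0.91). For Adamts8, Adamts9 and Adamts20 the closest genes were Klhl23 (0.93), Taf3 (0.90) and Zfp462 (0.90).

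Other ADAMTS enzymes were compared at E18 in the same fit. Of 11 tested, 6 were lower in DKO and 1 higher, with a list median of -1.33, and of all genes 21.8% were lower and 20.5% higher. Adamts17 fell by 5.01 ± 0.70 on the log2 scale, from a mean of 18.9 to 0.58 CPM (adjusted p = 0.000449), and Adamts18 fell by 4.56 ± 0.76 (adjusted p = 0.00104). Adamts19 had 148 counts in labelled E18 WT and 0 in E18 DKO, at least 11.6-fold higher against a floor of 3 counts per library. Adamts6 fell by 2.00 ± 0.39 (adjusted p = 0.00252). Adamts7, the closest relative of Adamts12, fell by 0.99 ± 0.28 (adjusted p = 0.0169). Adamts16 had 63 counts against 3 (ratio 14.8, 95% counting interval 4.84 to 73.8, adjusted p = 0.0351). Of the 63, 51 were in labelled E18 WT 3, and the groups overlapped in CPM. Without labelled E18 WT, the group where it was highest, Adamts16 did not pass the filter on low counts. Its call therefore adds no support to the 6 lower. The gene that rose was Adamts14, a procollagen N-propeptidase, by 2.97 ± 0.62 (adjusted p = 0.0032). At E12 none of the 11 was called by edgeR.

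ADAMTS-like proteins and papilin share the non-catalytic domains and lack the protease. Of 7 tested at E18, 3 were higher in DKO and 2 lower, against 20.5% of all genes higher and 21.8% lower. Adamtsl2 rose by 6.31 ± 1.24, from a mean of 1.77 to 139.6 CPM (adjusted p = 0.00239), and Adamtsl4, a microfibril-binding protein, rose by 4.44 ± 0.89 (adjusted p = 0.00274). Thsd4 fell by 2.25 ± 0.41 (adjusted p = 0.00156) and Papln by 1.81 ± 0.35 (adjusted p = 0.00218).

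Large substrates and their hyaluronan partners had 7 of 11 genes tested. Of the 7, Acan and Has1 passed the filter on low counts only with E18 DKO, the group where both were high, so their calls are no support for a direction. Vcan, which encodes versican, was at a mean of 93.7 CPM in E18 DKO and 153.2 in labelled E18 WT, a log2 difference of -0.71 ± 0.38 (adjusted p = 0.154). Hapln1, the link protein that ties such proteoglycans to hyaluronan, fell by 3.89 ± 0.78 (adjusted p = 0.00277), and the hyaluronan synthase Has1 was at a mean of 16.2 CPM in E18 DKO and 0.15 in labelled E18 WT. Acan, which encodes aggrecan, had 57 counts against 3 (ratio 26.9, 95% counting interval 8.76 to 134). The small leucine-rich genes Bgn, Dcn, Lum and Fmod were all 4 lower, against 21.8% of all genes. Of the 4, Bgn and Dcn are the targeted genes.

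Among 10 inhibitors, cofactors and clearance receptors 4 were higher in E18 DKO and 1 lower, against 20.5% of all genes higher and 21.8% lower. Timp3 rose by 1.46 ± 0.45, from a mean of 134.7 to 371.2 CPM (adjusted p = 0.0226). Timp4, at means of 1.97 and 0.18 CPM, likewise passed the filter only with E18 DKO, so its call adds no support to the 4. Timp1 rose by 1.44 ± 0.53 (adjusted p = 0.0462) and the heparan sulfate proteoglycan Sdc4 by 1.44 ± 0.25 (adjusted p = 0.00125). Fbln1, whose product is a cofactor of ADAMTS1, fell by 3.22 ± 0.43, from a mean of 150.5 to 16.1 CPM (adjusted p = 0.000364). Lrp1, the endocytic receptor that clears ADAMTS4 and ADAMTS5, was at 149.5 and 146.9 CPM (log2 difference 0.03 ± 0.21, adjusted p = 0.934). Of 6 genes of activation and glycosylation, Furin rose by 1.47 ± 0.38 (adjusted p = 0.00959) and Pcsk7 by 0.95 ± 0.16 (adjusted p = 0.0012), while B3glct fell by 0.77 ± 0.25 (adjusted p = 0.028).

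Between the DKO stages these lists gave 2 of 11 other ADAMTS enzymes higher and 6 lower at E18, 4 of 7 ADAMTS-like genes higher and 2 lower, and 6 of 10 inhibitors and cofactors higher and 1 lower, against 23.2% of all genes higher and 22.8% lower. The 6 include Timp4, which passed the filter on low counts only with E18 DKO, where it was high, so its call adds no support. Timp3 rose by 1.33 ± 0.45 (adjusted p = 0.0316) and Fbln1 fell by 3.07 ± 0.43 (adjusted p = 0.000349), by edgeR's quasi-likelihood test. Vcan was at -0.60 ± 0.38 (adjusted p = 0.213) and Lrp1 at -0.09 ± 0.21 (adjusted p = 0.741). Between labelled E18 WT and E12 WT no gene of the context lists was called, nor at E12 between the genotypes except Bgn and Dcn.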

How the data were processed

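Per the labels' protocols, RNA from frozen, ground fetal membranes went into TruSeq stranded libraries. Reads went through Trimmomatic 0.36, STAR 2.4.2a on GRCm38 and featureCounts (Subread 1.5.0), per the submitters' processing notes. Per the file headers, reads were counted over exons of Ensembl release 86 genes with strand option 2, with no option for reads that align to several places or overlap several genes. The deposited values are raw counts per gene, not normalised, and the exon length per gene is given by the authors in bases. Close copies of a gene can therefore lose reads.

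Counts were taken from each library's own file for 11 libraries and from the series table for E12 DKO 1. Symbols were found for 48349 gene IDs. Groups follow the labels. Genes were filtered with filterByExpr, and 1 edgeR 4.0.16 quasi-likelihood model (R 4.3.3, TMM factors, 8 residual degrees of freedom) was fitted to all 12 libraries, with p-values adjusted by Benjamini-Hochberg over 18153 genes. Its common biological coefficient of variation was 0.373, and within groups it was 0.177 (E12 DKO), 0.549 (E12 WT), 0.331 (E18 DKO) and 0.337 (labelled E18 WT). The standard error of a log2 fold change is its size over the square root of F. CPM and RPKM use TMM library sizes and the deposited lengths. Alternatives used DESeq2 1.42.0, limma 3.58.1, other scalings, filters and thresholds, and left out libraries. The procedure was tested on simulated data. Depth limits the rarest gene, Adamts20, most. Counting intervals are at 95%.

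The members and lists were chosen with earlier results of these data known. Named genes are all 8 members, at most 4 genes of each context list by adjusted p, Timp3, Vcan, Acan, Lrp1 and Fbln1, and the 3 most alike genes per member. Adamts7, Adamts16 and Timp1 were named beyond that rule to account for a count of calls, and for 3 members 1 alike gene is named. An item that the rule selects is not reported here. Promoter sequences are from RefSeq, build GRCm38.p6. Figures were drawn with matplotlib 3.10.9.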

Additional observations from a re-analysis of the deposited data

Results flagged for a closer look

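The DKO minus WT difference changed between the labelled stages for 3 of the 8 genes, by the interaction test in edgeR. Adamts12 was 1.92 log2 units higher in DKO in value at E12 and 2.68 lower at E18, an interaction of -4.60 ± 1.11 (SE, adjusted p = 0.00738). For Adamts15 the interaction was -2.87 ± 0.64 (adjusted p = 0.00503), from log2 differences of 0.48 and -2.39. For Adamts20 it was -6.40 ± 1.67 (adjusted p = 0.0108), from 2.00 and -4.41, and rests on 4 to 126 summed counts per group. Adamts20 passed the filter on low counts only with labelled E18 WT, where it was high; with no filter its interaction was -6.41 (adjusted p = 0.00694). The E12 differences themselves were not called, and the stage of the labelled E18 WT libraries goes against their globins. Stage and genotype therefore cannot be told apart in the E18 differences or in the interaction. In the same direction 20.3% of all genes were called.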

How the results depend on the processing

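One of the alternatives left out E12 WT 1 and labelled E18 WT 3 together, libraries that stood apart in these same data. Of 806 member values under all alternatives, 700 kept their direction and their side of the threshold, 28 lost the threshold, 43 gained it and 35 changed sign. The cause of these changes was not tested. All 35 were values not called in the main fit. Where 1 library was left out, the number of the 8 genes called ranged from 0 to 1 at E12, 2 to 5 at E18, 3 to 5 for the interaction, 1 to 4 between the DKO stages and 0 to 1 between the WT groups, and was 0 between E12 DKO and labelled E18 WT. The share of all genes called in those fits ran from 0.00535% to 17.1% at E12, 31.3% to 37.2% at E18 and 33.2% to 45.5% for the interaction. It ran from 34.4% to 40.8% between the DKO stages and 0.187% to 8.99% between the WT groups. Between E12 DKO and labelled E18 WT it ran from 0.0481% to 0.139%. Without E12 WT 1 and labelled E18 WT 3 together the E12 count was 1 and the DKO stage count 5 (20.3% and 56.0% of all genes). Adjusted p under 0.01, for which no share of all genes is given here, left 1 gene at E18 and 0 between the DKO stages. With library size alone as scaling, 6 genes were called for the interaction and 6 between the DKO stages (47.5% and 48.2% of all genes). DESeq2 called 5 and 5 there, and 1 between the WT groups (47.3%, 50.7% and 6.74% of all genes). Fitting the DKO groups alone called 6 between their stages (59.4% of all genes).

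Library size alone shifted the median log2 difference of all genes to 0.22 at E12, -0.41 at E18, -0.64 for the interaction, -0.37 between the DKO stages and 0.26 between the WT groups. Among all genes called at E12 it gave 41 higher and 14 lower, against 17 and 47 with TMM. At E18 it gave 2382 higher and 6015 lower, against 3725 and 3953, and for the interaction 2187 and 6438, against 3921 and 3679. Between the DKO stages it gave 2809 and 5947, against 4203 and 4146, and between the WT groups 181 and 91, against 53 and 120. Over all alternatives except the stricter threshold the genes called at E12 numbered 0 to 3753 (64 in the main fit), between the WT groups 35 to 1684 (173) and between E12 DKO and labelled E18 WT 9 to 247 (34).

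Signs of small values turned as follows. With library size alone, Adamts8 between the DKO stages was at -0.29, and between the WT groups Adamts9 was at 0.27, Adamts1 at 0.31 and Adamts5 at 0.0901. Limma voom put Adamts1 between the WT groups at 0.20. Without E12 WT 1 and labelled E18 WT 3 together, the E12 values were -0.14 for Adamts9, 0.37 for Adamts1 and 0.35 for Adamts5; between the WT groups Adamts1 was at 0.55 and Adamts5 at 0.31, and between E12 DKO and labelled E18 WT Adamts4 was at 0.0003 and Adamts5 at 0.0404. Leaving out 1 library gave these ranges at E12: Adamts4 -0.0874 to 0.63, Adamts9 -0.14 to 0.17, Adamts8 -0.0272 to 0.30, Adamts1 -1.37 to 0.37 and Adamts5 -1.07 to 0.35. Adamts8 between the DKO stages ranged from -0.16 to 0.22. Between the WT groups Adamts9 ranged from -0.37 to 0.20, Adamts1 from -0.75 to 1.25 and Adamts5 from -0.75 to 0.78. Between E12 DKO and labelled E18 WT, Adamts4 ranged from -0.69 to 0.0017, Adamts9 from -0.16 to 0.41, Adamts12 from -0.25 to 0.59 and Adamts5 from -0.70 to 0.0398.

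No label pairs the samples, and same-numbered libraries deviated together by over 0.1 in 3 of 15 pairs (correlations of -0.18 to 0.18). No pairing was evident from these values, and a shared litter or batch was not tested. With the replicate block the number of genes called was 0 at E12, 4 at E18, 3 for the interaction, 4 between the DKO stages, and 0 in the other comparisons. Of all genes it called 0.0275% at E12, 41.3% at E18, 40.2% for the interaction and 45.2% between the DKO stages. It called 0.424% between the WT groups and 0.116% between E12 DKO and labelled E18 WT. Between the WT groups the replicate block put Adamts1 at 0.16.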
